A study of Arabidopsis thaliana with 6 samples.

Results

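Lateral root initiation was represented by 4 genes, LBD29, LBD16, PUCHI and CR4 (also called ACR4). Their probe sets were found by name, as those with these symbols among the 13513 probe sets to which the platform annotation gave exactly 1 gene, out of 22810 probe sets in the table. Each was read by 1 probe set: LBD29 (AT3G58190) by 251565_at, LBD16 (AT2G42430) by 265856_at, PUCHI (AT5G18560) by 249992_at and CR4 (AT3G59420) by 251521_at. A search for further members of the LBD family, by LBD and a number in the symbol, added 0 probe sets. RefSeq lists 40 Arabidopsis genes with such a name as symbol or synonym, and a probe set with 1 gene named 2 of them, LBD16 and LBD29. A contrast of the lateral root LBD genes with the rest of the family was therefore not made, and the other LBD genes were not analysed here.

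Lateral roots arise from pericycle cells deep inside the parent root, where auxin releases the auxin response factors ARF7 and ARF19 from their Aux/IAA repressors. LBD16 and LBD29, DNA-binding proteins of the LOB-domain family, are transcribed under the control of these factors and act in the first asymmetric divisions of the founder cells and in the growth of the new primordium. PUCHI, an AP2-type transcription factor, acts later, in the patterning of cell divisions in the primordium. CR4 is a receptor-like kinase that promotes formative divisions of pericycle cells and restrains further divisions around them.

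The samples were 10 d old Arabidopsis thaliana seedlings of the Columbia ecotype, with no mutation or transgene named in the labels. In 3 samples they were kept for 8 h in liquid medium with 1e-07 M 2,4-D, a synthetic auxin, and 1e-06 M brassinazole, which inhibits the synthesis of brassinosteroids, steroid hormones that promote growth. In the other 3 samples the medium held 1e-07 M 2,4-D alone. All 6 samples thus carried auxin, and every difference below is that of adding brassinazole to it; the response to 2,4-D itself was not measured. RNA came from whole seedlings, with 3 replicate seedlings to a batch per the labels, which do not make plain whether each replicate was a pool of its own. If it was not, the p-values cover a spread between arrays that may be only technical.

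Transcripts were read on 1 Affymetrix array per sample as MAS5 signals, linear intensities with 1 value per probe set, which the authors had scaled to a common mean (each array's mean signal, trimmed to the middle 96% of its values, was 500). Differences were tested with limma on log2(signal + 16) over 17059 probe sets, and all 4 members lay above its filter on dim probe sets. A probe set passed at a Benjamini-Hochberg adjusted p under 0.05. Some control probe sets moved with the groups or stood apart on 1 array. The 5S rRNA control read 230 to 284.3 on the brassinazole arrays and 133.7 to 173.9 on the 2,4-D arrays. The 25S rRNA control read 981.4 on 2,4-D replicate 1 and at most 215 on the other arrays. Of the 14 probe sets for the spiked bioB, bioC and bioD controls, 7 were higher on all 3 brassinazole arrays than on any 2,4-D array, as were 12.9% of all probe sets tested, and the other 7 overlapped. The median log2 difference of the 14 was 0.21, and 0.11 without brassinazole replicate 3, where AFFX-BioDn-3_at read 3800 against at most 2746 elsewhere. A 5' actin control, AFFX-Athal-Actin_5_r_at, was lower with brassinazole, at 287.8 to 312.9 on the brassinazole arrays and 348.7 to 456.3 on the 2,4-D arrays. The other actin controls overlapped between the groups. Among them was a brighter 5' control, AFFX-r2-At-Actin-5_s_at, at 4609 to 5404 with brassinazole and 4630 to 4953 with 2,4-D alone. The part of these differences in the results below was not tested. Each member was also fitted without 2,4-D replicate 1 and brassinazole replicate 3, which does not bear on differences shared by all 3 arrays of a group.

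Of the 4 genes, 3 were lower with brassinazole past the threshold and 1, CR4, did not pass. Over all probe sets tested, 4.08% were lower past the threshold and 7.52% passed in either direction. Since the 4 were picked with earlier results of these data known, their count is given as a description beside that share. The median log2 change of the 4 genes was -0.88, against -0.01 over all probe sets tested. The order of the changes ran from LBD29 over LBD16 and PUCHI to CR4.

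LBD29 gave the largest fall of the 4. Its signal was 83.5, 81.1 and 85.2 on brassinazole replicates 1 to 3, against 250.7, 209.4 and 276.0 on 2,4-D replicates 1 to 3. All brassinazole arrays lay far below all 2,4-D arrays, and the highest of them reached 40.7% of the lowest 2,4-D array. A lack of overlap in this direction, of any size, was seen in 14.3% of all probe sets tested. The mean was 83.3 ± 2.04 with brassinazole and 245 ± 33.6 with 2,4-D alone (SD, n = 3 each), a ratio of 2.95 between the 2,4-D and the brassinazole mean. On the log2(signal + 16) scale, where dim signals show smaller changes than on a plain log2 scale, the change was -1.39 ± 0.132 (SE), with a 95% interval of -1.67 to -1.11 and a limma adjusted p of 2.12e-05. This was the 18th lowest change of the 17059 probe sets, within the lowest 0.106%, and the 11th lowest among the tested probe sets with 1 gene.

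LBD16, which acts beside LBD29, was also clearly lower. It read 110.2, 122.4 and 144.0 on brassinazole replicates 1 to 3, against 322.7, 284.3 and 292.0 on 2,4-D replicates 1 to 3. Again the groups lay apart, the highest brassinazole array at 50.6% of the lowest 2,4-D array. The mean was 126 ± 17.1 with brassinazole and 299.6 ± 20.3 with 2,4-D alone (SD, n = 3 each). The log2 change was -1.16 ± 0.123 (SE), with a 95% interval of -1.42 to -0.90 and a limma adjusted p of 5.75e-05. This was the 43rd lowest log2 change of all probe sets tested. Without 2,4-D replicate 1 and brassinazole replicate 3, whose controls are given above, the log2 changes were -1.38 for LBD29 and -1.20 for LBD16, both past the threshold. With all arrays, both LBD genes were among the 65 probe sets, 0.381% of those tested, that passed and were at least 2-fold lower. In whole seedlings, fewer cells with a transcript and less of it per cell cannot be told apart.

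PUCHI changed less and with more scatter. Its signal was 94.0, 69.0 and 63.2 on brassinazole replicates 1 to 3, against 107.7, 118.3 and 140.9 on 2,4-D replicates 1 to 3. The groups did not overlap, but brassinazole replicate 1 reached 87.3% of the lowest 2,4-D array. Over all probe sets tested, the brassinazole arrays lay wholly below the 2,4-D arrays in 14.3%. The mean was 75.4 ± 16.3 with brassinazole and 122 ± 17 with 2,4-D alone (SD, n = 3 each), and the log2 change was -0.61 ± 0.167 (SE), with a 95% interval of -0.96 to -0.25. Its limma adjusted p of 0.0418 was just under the threshold. It was 0.0647, 0.0982 and 0.159 without 2,4-D replicate 1, 2 or 3, and 0.119 and 0.111 without brassinazole replicate 2 or 3. Without brassinazole replicate 1, the highest of its group, it was 0.0215. It was 0.11 with no filter on dim probe sets, 0.0551 with no mean-variance trend in eBayes and 0.122 with 2,4-D replicate 1 and brassinazole replicate 3 both left out. The direction was lower in each of these fits.

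CR4 showed no detectable change. It read 127.3, 94.2 and 115.8 on brassinazole replicates 1 to 3, against 104.3, 108.9 and 116.0 on 2,4-D replicates 1 to 3. The 3 values of the 2,4-D group lay within the range of the brassinazole group, and the mean was 112 ± 16.8 with brassinazole and 109.7 ± 5.90 with 2,4-D alone (SD, n = 3 each). The log2 change was 0.02 ± 0.145 (SE; limma adjusted p = 0.954), and its 95% interval of -0.29 to 0.33 did not reach the change of either LBD gene. Changes of CR4 within that interval, in either direction, are not excluded by these arrays, and the sign of the estimate turned without brassinazole replicate 1 (-0.06) or 2,4-D replicate 1 (-0.0083). For a single gene, the exact permutation test on 3 against 3 arrays cannot give a two-sided p under 0.1; it gave 0.1 for LBD29, LBD16 and PUCHI each and 1 for CR4.

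**Figure D1:**
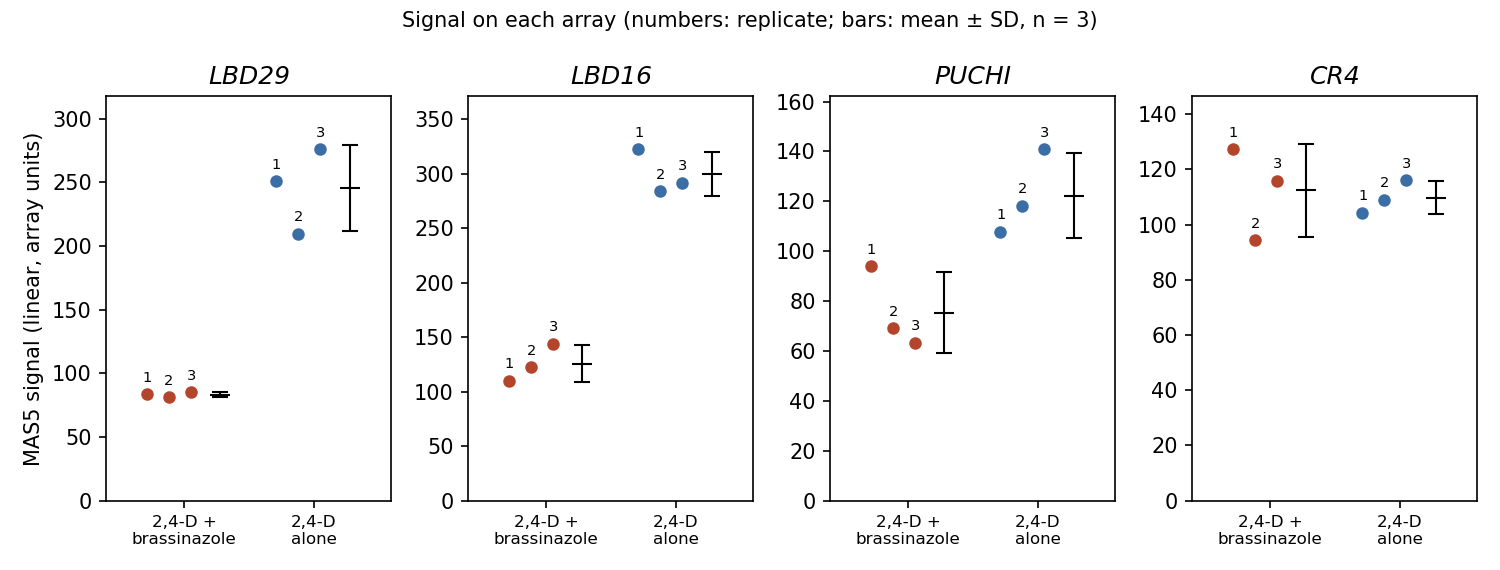
Linear MAS5 signal of each gene (vertical axes, each from 0) on the 3 arrays with 2,4-D plus brassinazole (red, left) and the 3 arrays with 2,4-D alone (blue, right). Numbers are replicate numbers and black bars the mean ± SD. The groups lie far apart for LBD29 (83.3 against 245) and LBD16 (126 against 299.6), close to each other for PUCHI and overlap for CR4.

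**Figure D2:**
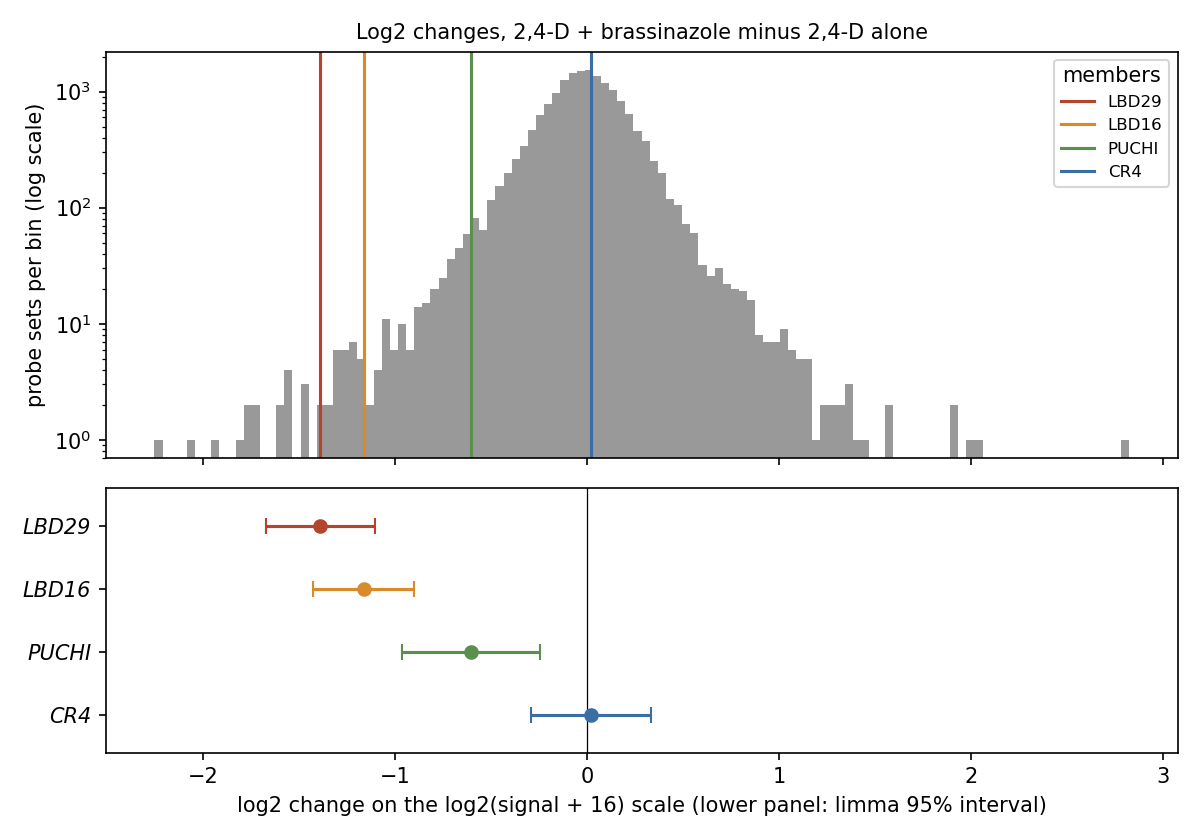
Upper panel, the number of probe sets (log axis) by log2 change, 2,4-D plus brassinazole minus 2,4-D alone, over the 17059 tested, with the 4 genes as coloured lines. Lower panel, the log2 change of each gene with its limma 95% interval. LBD29 at -1.39 and LBD16 at -1.16 lie in the sparse lower tail, PUCHI at -0.61 on its flank and CR4 at 0.02 in the centre.

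The SD within a group differed between the 2 LBD genes, but an SD of 3 arrays is imprecise and unequal spread was not tested. On the log2(signal + 16) scale the SD of LBD29 was 0.0297 over the brassinazole arrays and 0.189 over the 2,4-D arrays, while that of LBD16 was 0.172 and 0.0915. The arrays also ranked differently for each gene. On brassinazole replicate 3, LBD16 was highest of its group at -0.98 log2 units from the 2,4-D mean and PUCHI lowest at -0.80. On brassinazole replicate 1, the order was turned, with LBD16 at -1.32 and PUCHI at -0.32 from the 2,4-D mean. LBD29 lay between -1.42 and -1.36 on all 3 arrays, so no brassinazole array was the lowest for all 3 genes that fell.

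The log2 ratio of 2 genes on the same array shows whether they changed unequally; its own level has no meaning, since probe sets differ in brightness. The ratio of LBD29 to LBD16 averaged -0.50 ± 0.159 on the brassinazole arrays and -0.28 ± 0.178 on the 2,4-D arrays (SD, n = 3 each), and the groups overlapped, so the larger fall of LBD29 was not set apart from that of LBD16. The ratio of LBD29 to PUCHI averaged 0.13 ± 0.254 and 0.92 ± 0.182 in the same groups, with no overlap. That of LBD16 to PUCHI averaged 0.64 ± 0.412 and 1.20 ± 0.242 and overlapped. Set against CR4, all 3 other genes had lower ratios on every brassinazole array than on any 2,4-D array. The differences between the group means were -1.41 for LBD29, -1.19 for LBD16 and -0.63 for PUCHI. CR4 itself changed by 0.02, so these differences largely repeat the log2 changes of the 3 genes taken alone. The share of all gene pairs that lie apart in this way was not determined. For PUCHI and CR4, the limma intervals of the log2 change overlapped (-0.96 to -0.25 against -0.29 to 0.33). Such an overlap is not a test of a difference, and whether PUCHI and CR4 changed unequally was not tested. These 6 ratios share genes and were not tested.

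Few other genes of the pathway were named by the platform annotation used here. It gave no entry to 8794 of the 22810 probe sets and several genes to 503. Of 85 loci in 10 lists (auxin signalling and transport, founder cells, primordium identity, receptors and peptides, paralogs of CR4 and PUCHI, other names in the LBD family, emergence and wall, and division), a probe set with 1 gene named 4, and 2 of these were bright enough to be tested. ARF7, ARF19, IAA14 and GATA23, which act upstream of or beside the LBD genes, were among the loci not analysed here. LEP, an AP2-type factor of the same subfamily as PUCHI, read 193.0, 228.7 and 213.6 with brassinazole, against 233.0, 249.4 and 182.0 with 2,4-D alone. These groups overlapped, and LEP did not pass (log2 change -0.05 ± 0.129, SE; limma adjusted p = 0.867). AT5G14650, of the list on emergence and the wall, fell to 573.9 ± 97.2 with brassinazole, against 885 ± 64.6 with 2,4-D alone (SD, n = 3 each; log2 change -0.62, limma adjusted p = 0.00348).

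CLE40, a signalling peptide that acts through CR4 in the stem cell niche of the root tip, was too dim to be tested. It read 12.9, 13.6 and 16.2 with brassinazole, against 11.2, 12.7 and 22.1 with 2,4-D alone, and the groups overlapped. The fourth named locus, AT5G66815, was also below the filter, at 27.7, 45.8 and 27.6 with brassinazole, against 12.4, 12.1 and 25.6 with 2,4-D alone. Its brassinazole arrays lay wholly above its 2,4-D arrays, as in 12.9% of all probe sets tested. The share among probe sets below the filter was not determined. At these signals, under the filter's floor of 34.2 as a mean, no fit was made.

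Markers of both shoot and root gave signal in the samples. Of 15 marker loci, 4 were named and tested, and 0 passed with limma (2, EXPA7 and EXPA18, at an unadjusted p under 0.05). RCA, the Rubisco activase of green tissue and the only shoot marker of 6 that was named, read 22950 to 29050 with brassinazole and 24530 to 25760 with 2,4-D alone. The 3 named root markers of 9 were PYK10, an abundant root beta-glucosidase, and the root hair expansins EXPA7 and EXPA18; their summed signal was 14840 to 17710 with brassinazole and 14030 to 17860 with 2,4-D alone, nearly all of it PYK10. None of the named markers was at 0, and the lowest single value was 147.4. EXPA7 had a log2 change of -0.37 (limma adjusted p = 0.0916) and EXPA18 one of -0.44 (adjusted p = 0.0806), while PYK10 had one of 0.09 (adjusted p = 0.684). For EXPA7 and EXPA18 the brassinazole arrays lay wholly below the 2,4-D arrays, as in 14.3% of all probe sets tested. For PYK10 the groups overlapped. The part of root hair or other cell numbers in the fall of the LBD genes was not tested.

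The genes whose profile over the 6 arrays was most like that of LBD29 included wall proteins. Likeness was measured as the root mean square difference between 2 log2(signal + 16) profiles, each centred on its own mean, over the 9414 other tested probe sets with 1 gene. Nearest to LBD29 were AT1G62770 (difference 0.0906), EXPB2 (0.132), a beta-expansin, and EXPA8 (0.136), an alpha-expansin; expansins loosen cell walls. LBD16 itself lay at 0.178 from LBD29. Nearest to LBD16 were AT3G51410 (0.0984), AT1G67750 (0.101) and WES1 (0.102), an enzyme of the GH3 family that joins auxin to amino acids. WES1 read 2306, 2474 and 2361 with brassinazole, against 5806, 5383 and 5354 with 2,4-D alone. All 6 of these genes fell past the threshold, with log2 changes between -1.58 for EXPA8 and -1.03 for AT3G51410, which the choice by likeness to a gene that fell makes likely.

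The genes nearest to PUCHI lay at smaller differences, AT4G27590 at 0.0365, AT4G21650 at 0.0691 and AT4G31050 at 0.0803. This measure is not scaled to the size of the change, which was smaller for PUCHI than for the LBD genes. Pearson correlations with PUCHI, which are scaled, were 0.995, 0.982 and 0.977 in the same order. Those of the neighbours of LBD29 and LBD16 ran from 0.986 to 0.994, so a closer likeness for PUCHI is not concluded. Like PUCHI, each of these neighbours was highest of its group on brassinazole replicate 1 and on 2,4-D replicate 3. The choice by likeness to PUCHI on the same arrays makes that likely. Their log2 changes were -0.64, -0.55 and -0.54, with limma adjusted p of 0.0172, 0.0947 and 0.046, so AT4G21650 did not pass. The call of AT4G31050 was lost in 10 of 14 alternative fits and that of AT4G27590 in 5 of 14, with adjusted p up to 0.156 and 0.0846.

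**Figure D3:**
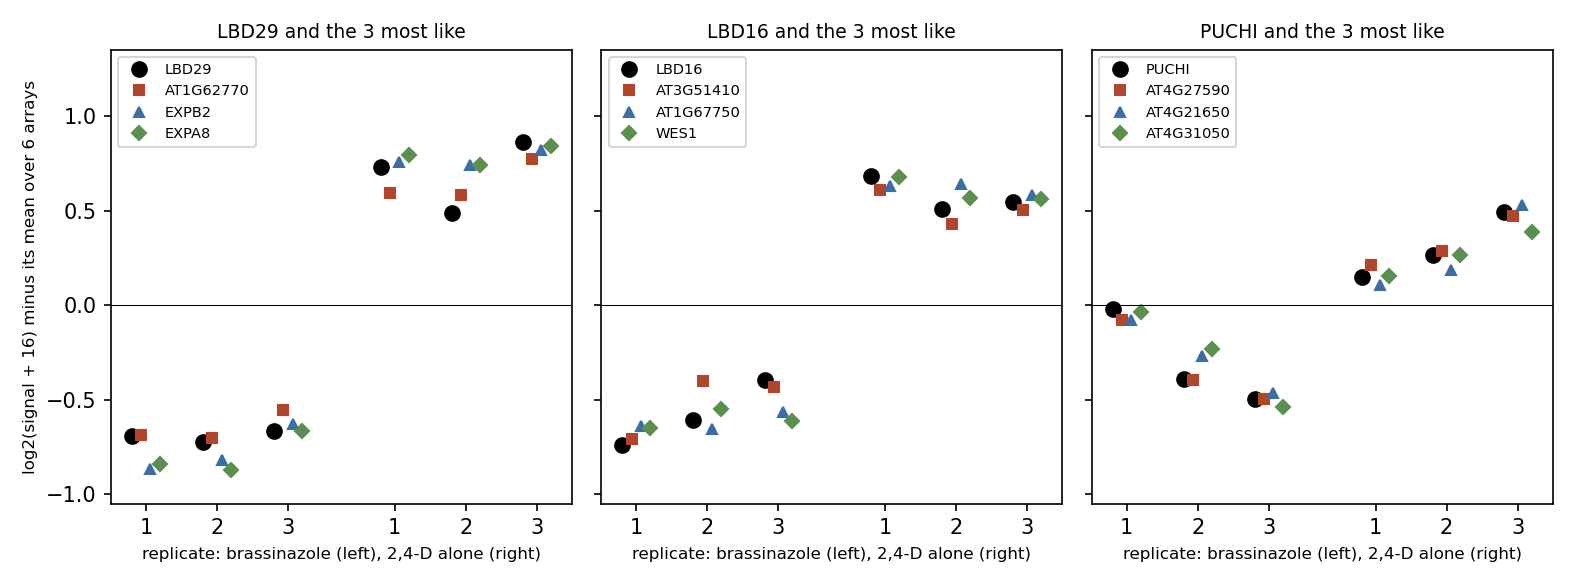
Log2(signal + 16) minus its mean over the 6 arrays (vertical axis) for LBD29, LBD16 and PUCHI (black circles) and the 3 probe sets most like each (coloured symbols), by replicate, with the 3 brassinazole arrays left and the 3 arrays with 2,4-D alone right. Symbols are shifted sideways for sight. The profiles of LBD29 and LBD16 and of their nearest genes split widely by group. PUCHI and its nearest genes show a smaller shift between the groups. Values vary within the groups for LBD29 and LBD16 too.

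The genes beside the 4 on the chromosome were also read, as a description added after the data were seen. Of the 3 protein-coding genes on either side of each, 24 in all by their order in RefSeq (TAIR10.1), 10 were tested, and 0 passed with limma (0 at an unadjusted p under 0.05). With 7.52% of all probe sets passing, a count of 0 in 10 is near that share and is given as values only. Their log2 changes ran from -0.29 to 0.31. Next to LBD29, AT3G58180 and AT3G58200 had log2 changes of -0.07 and 0.31. For LBD16, only AT2G42450, the second gene on one side, was tested (0.20, adjusted p = 0.356), and ASL15, the adjoining gene and itself of the LBD family (LBD17), was not analysed here.

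**Figure D4:**
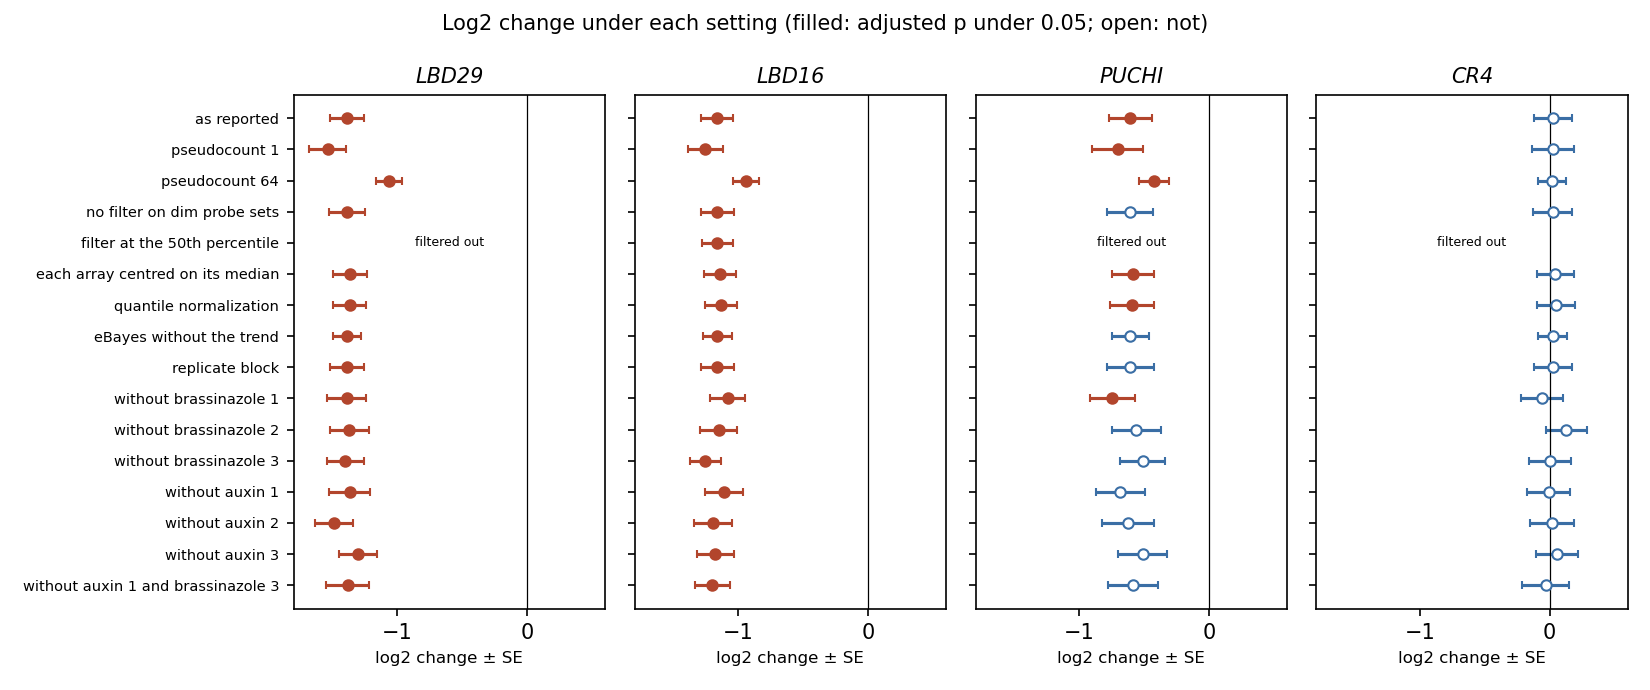
Log2 change ± SE (horizontal axis) of each gene, 2,4-D plus brassinazole minus 2,4-D alone, under the fit as reported and each alternative (rows); filled symbols have an adjusted p under 0.05. LBD29 and LBD16 stay below -0.9 and past the threshold in every fit that tested them, PUCHI crosses the threshold often, and CR4 stays near 0; LBD29, PUCHI and CR4 were too dim for a filter at the 50th percentile.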

How the data were processed

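Per the submitters' processing notes, the deposited linear intensities are MAS5 signals. The version of MAS5, detection calls and filters are not given in the labels. No scanner files were used. Sample titles gave the group and replicate number. Genes were named through the platform annotation and RefSeq (TAIR10.1), the second used for names and gene order only: 13436 of 13513 probe sets with 1 gene matched. The 64 Affymetrix control probe sets were left out of the test.

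Signals were taken as log2(value + 16); a filter at the 25th percentile of the mean log2 value removed the dimmest, and 17059 were fitted with limma 3.58.1 in R 4.3.3 (lmFit and eBayes, trend = TRUE; two-sided tests), with Benjamini-Hochberg adjustment over all of them. A negative change means a lower signal with brassinazole. The number of arrays, 3 a group, limits the precision.

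The members, lists and tests were chosen with earlier results of these data known. The text names all members, up to 4 passing genes of a list (otherwise up to 2 by smallest p), and the 3 probe sets with 1 gene most like LBD29, LBD16 and PUCHI; pathway loci below the filter were named after their values were seen. Alternatives were other pseudocounts (1 and 64), filters (none and the 50th percentile), median centring, quantile normalization, no variance trend, a replicate block and leaving out arrays. No sequence is shown, since no sequence source was used here.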

Additional observations from a re-analysis of the deposited data

How the results depend on the processing

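LBD29 kept its fall and its call in 14 of 14 alternative fits (log2 change -1.54 to -1.07, adjusted p at most 0.0016) and LBD16 in 15 of 15 (-1.25 to -0.94, at most 0.00182). The change moved most with the pseudocount. With arrays centred on their median, which moved the median of all changes to 0.01, or quantile normalized, no member changed its call. PUCHI kept its direction in 14 fits but lost its call in 9. Its log2 change was -0.61 with the replicate block, with no filter and with no variance trend (adjusted p = 0.0671, 0.11 and 0.0551), and -0.59 without 2,4-D replicate 1 and brassinazole replicate 3; with single arrays left out it ran from -0.75 to -0.51. CR4 turned to -0.060 without brassinazole 1, -0.0083 without 2,4-D 1 and -0.03 without both arrays whose controls stood apart; leaving out single arrays gave -0.060 to 0.13. LEP turned to 0.0083 without brassinazole 1 and 0.034 without 2,4-D 2 (range -0.18 to 0.034 over single arrays), and RCA to -0.026 without brassinazole 3 and -0.0046 without both arrays (range -0.026 to 0.14 over single arrays). These changes near 0 were not called in any fit. EXPA18 passed without 2,4-D 3 (adjusted p = 0.0238).

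The number of members called lower was 3, was 2 or 3 with single arrays left out, and was 1 with a filter at the 50th percentile, which removed LBD29, PUCHI and CR4, so that only LBD16 was tested. The number of probe sets called was 1282 in all, 755 without the variance trend, 815 without both arrays and 821 to 1157 with single arrays left out (821 without brassinazole 2, 844 without 2,4-D 1 and 834 without 2,4-D 3); fewer arrays alone give fewer calls. Samples with the same replicate number deviated together only weakly (correlations of 0.037, 0.063 and 0.049 over probe sets), so the numbers were not taken as pairs, though each sample correlated best with its own number, a hint from the data and not from the design. The replicate block left 7.5% of probe sets called, against 7.52%, and changed the call of PUCHI and of AT4G31050 among the genes named. The alternatives planned for other LBD genes were not run, since none was tested. The part of signal over background in the values of dim probe sets is unknown without detection calls.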
